A study of Mus musculus with 6 samples.

Results

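The miR-181 family of microRNAs (miRNAs) was followed in extracellular vesicles of mouse brain. Its members were taken by name, as every listed entry that begins with miR-181a, miR-181b, miR-181c or miR-181d, on either arm of the hairpin. The rule gave 10 of the 1926 listed names, 4 from the 5p arm and 6 from the 3p arm. Each of the 10 was above 0 in at least 1 library, as were 775 names in all, and 6 of the 10 averaged 10 RPM or more, as did 290 names in all. The unit RPM scales reads to the total miRNA reads of each library. By their labels the 6 small RNA libraries form 2 groups of 3. The SE libraries hold vesicles of mouse brains after status epilepticus, a seizure that does not end by itself, and the CON libraries those of matched controls. The time, from the title, is 24 hr. The strain, age and sex of the mice, the agent that induced the seizure, and whether animals were pooled are not given in the sources used here. Nothing in the labels ties a replicate to an animal of its own, and p-values therefore refer to the spread among these libraries, which may be technical. In vesicles from whole tissue, fewer source cells of a type and less miRNA per cell cannot be told apart.

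miRNAs are cut from a hairpin RNA, whose 5p or 3p strand is loaded into an Argonaute protein and pairs with messenger RNAs through its seed, bases 2 to 8. The miR-181 family is made from 6 hairpin genes in 3 clusters. In mouse lymphocytes miR-181a is known for setting the sensitivity of the T cell receptor, and in neurons miR-181a is known for lowering an AMPA receptor subunit at synapses. Members have also been studied in astrocytes and in injury of the brain by lack of blood flow, where targets include stress chaperones and Bcl-2 family proteins.

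The mature sequences show which entries could act on the same messenger RNAs and which could be mistaken for each other in counting. All 10 entries matched a RefSeq mature sequence (GRCm38.p6) of 21 to 24 nt. They are written 5′ to 3′ with the seed in capitals.
miR-181a-5p: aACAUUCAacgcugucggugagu
miR-181b-5p: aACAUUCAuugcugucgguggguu
miR-181c-5p: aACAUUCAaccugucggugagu
miR-181d-5p: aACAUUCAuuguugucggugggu
miR-181a-1-3p: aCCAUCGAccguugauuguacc
miR-181c-3p: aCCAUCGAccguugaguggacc
miR-181a-2-3p: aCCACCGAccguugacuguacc
miR-181d-3p: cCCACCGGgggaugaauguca
miR-181b-1-3p: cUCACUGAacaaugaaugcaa
miR-181b-2-3p: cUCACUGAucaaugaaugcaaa
The 4 entries of the 5p arm share 1 seed, and 0 other mouse miRNAs of the 1679 in the RefSeq table carry it. The 6 entries of the 3p arm have 4 seeds: miR-181a-1-3p and miR-181c-3p share one, the 2 miR-181b 3p entries share another, and miR-181a-2-3p and miR-181d-3p each have their own. With positions counted from 1 at the 5′ end of the first sequence named, miR-181b-5p differs from miR-181a-5p by A9U, C10U and A21G and 1 further base at its end. miR-181d-5p differs from miR-181b-5p by C12U and lacks its last base. miR-181c-5p matches miR-181a-5p at 22 bases and lacks 1. How the authors counted reads that fit more than 1 of these was not stated in the labels, so the split of reads between miR-181b-5p and miR-181d-5p in particular is uncertain.

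The 5p sequence of miR-181a is the same in 2 hairpins, and so is that of miR-181b, so the entries miR-181a-5p and miR-181b-5p each pool 2 genes. The 3p arms tell these copies apart, as the hairpins of the 2 miR-181a genes show, with both mature arms in capitals.
Mir181a-1: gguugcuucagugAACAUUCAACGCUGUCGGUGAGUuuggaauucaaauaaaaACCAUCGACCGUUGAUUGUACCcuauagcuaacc
Mir181a-2: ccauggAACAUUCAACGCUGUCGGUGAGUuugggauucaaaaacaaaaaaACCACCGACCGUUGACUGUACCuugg
miR-181a-2-3p differs from miR-181a-1-3p by U5C, inside the seed, and U16C. Mir181a-1 (GRCm38.p6, chr1:137966455-137966541, plus strand) and Mir181b-1 (chr1:137966639-137966718, plus strand) lie 97 bases apart in an exon of the long noncoding RNA A430106G13Rik and an intron of Gm4258, both on the same strand. Mir181a-2 (chr2:38852735-38852810, plus strand) and Mir181b-2 (chr2:38853830-38853918, plus strand) lie 1019 bases apart in an intron of Nr6a1, on the opposite strand to that gene. Mir181d (chr8:84178716-84178787, minus strand) and Mir181c lie 85 bases apart in an intron of Nanos3, on its strand, with the mature arms of Mir181c at chr8:84178885-84178906 and chr8:84178924-84178945. The host genes come from GENCODE M21 of the same assembly. The deposited files hold no coordinates, and the submitters' processing notes name another build, mm9.

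The libraries held between 5482407 and 10845434 miRNA reads, with the most in SE replicate 1. In the deposited table the CON columns do not follow the miRNA names, and every CON value below was first put back under its name by means of the base means that the authors deposited. Of the 10 miR-181 entries, 9 matched a single CON row and miR-181b-1-3p matched 4 rows with identical reads. A value of 0 allows up to 0.277 to 0.547 RPM, depending on the library, for counting error only and on the reading that 0 means no reads. The lowest value above 0 of each library was taken as 2 reads, and if so a 0 may hide a single read. The labelled tissue was checked with marker miRNAs: all 6 neuron markers were over 10 RPM, with sums of 20301 to 24920 RPM in SE and 22317 to 26838 RPM in CON libraries. Of 4 red cell markers, miR-144-3p and miR-144-5p were at 0 throughout, and the list summed to 16.8 to 32.2 RPM in SE and 19.1 to 29.5 RPM in CON libraries. The liver marker miR-122-5p stood higher, at 89.4 to 114 RPM in SE and 150 to 233 RPM in CON libraries. It was not called, with a limma adjusted p of 0.0504. Endothelium markers summed to 4355 to 5240 RPM in SE and 4817 to 6715 RPM in CON libraries. What carry-over from outside the brain contributes was not tested. Nothing in the sources used here checks the labels SE and CON against a value, and directions follow the labels.

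The family was a small and steady part of the vesicle miRNAs. Of all miRNA reads, the 10 entries together took 0.133%, 0.0981% and 0.116% in the SE libraries, and 0.104%, 0.125% and 0.129% in the CON libraries, here and below in the order of the replicate numbers. The highest and the lowest of these values were both SE libraries, and the groups overlapped. The 4 entries with the shared seed summed to 1212, 888 and 1048 RPM in the SE libraries, against 922, 1131 and 1149 RPM in the CON libraries. SE libraries averaged 1049 ± 162 RPM and CON libraries 1067 ± 126 RPM (SD, n = 3 each), a difference far within the spread of either group. The 6 entries of the 3p arm had sums of 108 ± 13.9 RPM in the SE and 123 ± 13.7 RPM in the CON libraries (SD, n = 3 each).

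**Figure D1:**
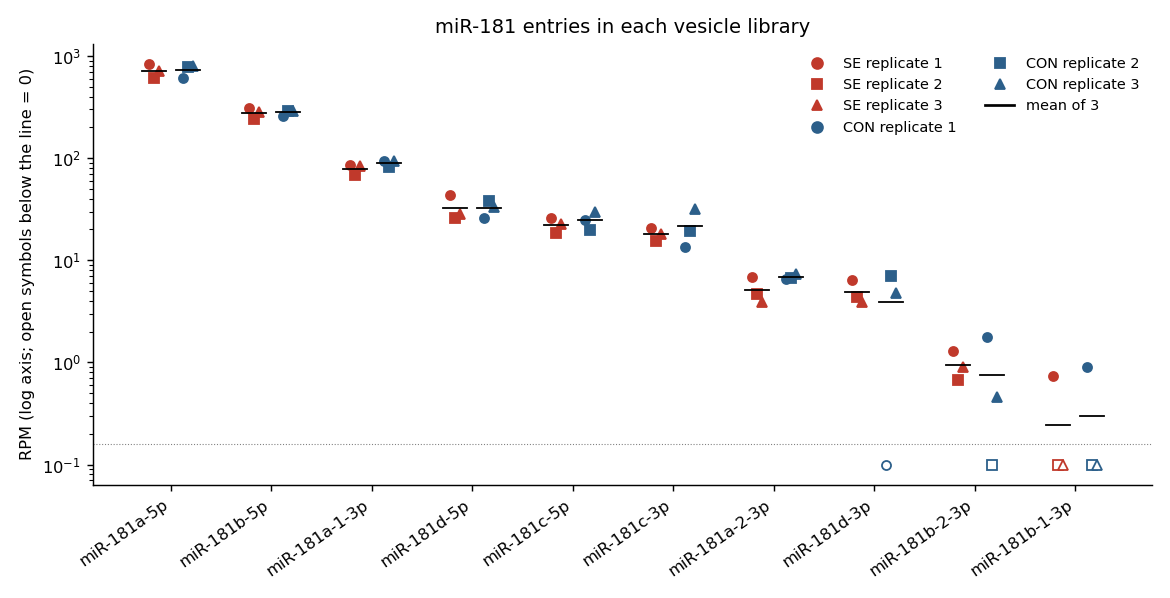
RPM of each miR-181 entry in each library on a log axis, SE libraries in red to the left of CON libraries in blue, with symbols for replicates and a line at the mean of 3. The entries run from miR-181a-5p, at 603 to 834 RPM, down to miR-181b-1-3p, which was above 0 in 2 libraries, and open symbols under the dotted line stand for 0.

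miR-181a-5p, the form known from T cells and synapses, was the most abundant member and ranked 56 among the 775 detected miRNAs. It stood at 834, 603 and 715 RPM in the SE libraries, against 613, 781 and 795 RPM in the CON libraries. SE replicate 1 was the highest and SE replicate 2 the lowest of the 6, with the CON values between them. The log2 difference, SE over CON, was -0.03 with a standard error of 0.19 and a limma adjusted p of 0.966. Its 95% interval ran from -0.43 to 0.38, whose lower end stands for 0.741 times the level in CON libraries. Here and below, log2 differences are on the log2(RPM + 1) scale, which understates changes of low entries, and come from limma-trend over the 290 miRNAs.

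miR-181b-5p, transcribed beside miR-181a in both of its clusters, ranked 79. Its level was 309, 241 and 283 RPM in the SE libraries, against 259, 292 and 291 RPM in the CON libraries. Again SE replicate 1 was the highest and SE replicate 2 the lowest library. The log2 difference was -0.02, with a standard error of 0.20 and a limma adjusted p of 0.966. Among the 290 tested miRNAs 11.03% had a smaller standard deviation of log2 values within groups, 0.15 for miR-181b-5p against a median of 0.25. This comparison, like the one for miR-181c-3p below, was not matched for level, and scarce miRNAs tend to vary more.

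miR-181d-5p and miR-181c-5p, from the chromosome 8 cluster, were the scarce forms with the family seed. miR-181d-5p had 43.2, 25.8 and 28.3 RPM in the SE libraries, against 26.1, 38.3 and 32.9 RPM in the CON libraries. miR-181c-5p had 26.2, 18.3 and 22.4 RPM in the SE libraries, against 24.7, 19.7 and 29.98 RPM in the CON libraries. Their groups overlapped over most of their range, and the log2 differences were -0.02 for miR-181d-5p and -0.14 for miR-181c-5p, each with a standard error of 0.25. The limma adjusted p was 0.973 for miR-181d-5p and 0.904 for miR-181c-5p.

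In the 3p arm 2 entries passed the filter of 10 RPM. miR-181a-1-3p, the strand opposite miR-181a-5p in the chromosome 1 hairpin, had 84.7, 68.0 and 83.9 RPM in the SE libraries, against 92.8, 81.2 and 94.4 RPM in the CON libraries. SE replicate 2 was the lowest library, and the other SE libraries lay between the CON values. Its log2 difference of -0.18, with a standard error of 0.21, was the one farthest from 0 among the 6 tested entries, and its limma adjusted p was 0.871. miR-181c-3p had 20.5, 15.5 and 18.1 RPM in the SE libraries, against 13.4, 19.5 and 31.7 RPM in the CON libraries. The lowest and the highest library were both CON, and the log2 difference was -0.17 with a standard error of 0.29 and a limma adjusted p of 0.893. Of the 290 miRNAs, 86.2% had a smaller within-group standard deviation than miR-181c-3p, at 0.44.

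The other 4 entries of the 3p arm lay under the filter and are given here as values. miR-181a-2-3p, the strand that marks the chromosome 2 copy of miR-181a, had 6.92, 4.65 and 3.89 RPM in the SE libraries, against 6.61, 6.75 and 7.38 RPM in the CON libraries. SE replicate 1 lay among the CON values and the other SE libraries under them. miR-181d-3p had 6.36, 4.32 and 3.89 RPM in the SE libraries, against 0, 6.93 and 4.77 RPM in the CON libraries. Its 0 was in CON replicate 1, where up to 0.536 RPM is allowed, and the other libraries held 26 to 69 reads of it. miR-181b-2-3p had 1.29, 0.665 and 0.897 RPM in the SE libraries, against 1.79, 0 and 0.461 RPM in the CON libraries. miR-181b-1-3p was seen in SE replicate 1, with 8 reads or 0.738 RPM, and in CON replicate 1, with 5 reads or 0.894 RPM, and was at 0 in the other 4 libraries.

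Of the 6 tested entries, 0 were called by limma-trend at an adjusted p under 0.05, where 1.03% of the 290 miRNAs were called, and 0 had an unadjusted p under 0.05, where 9.31% did. limma-voom on reads recovered from the RPM steps also called 0. SE and CON values overlapped for all 6, while they did not overlap for 14.8% of the 290. Without the filter, as an alternative, all 10 entries were tested and 0 were called, where 0.516% of 775 miRNAs were called. The median log2 difference of the 6 was -0.08, beside -0.07 over all 290. These are near the background and single out nothing about the family.

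**Figure D2:**
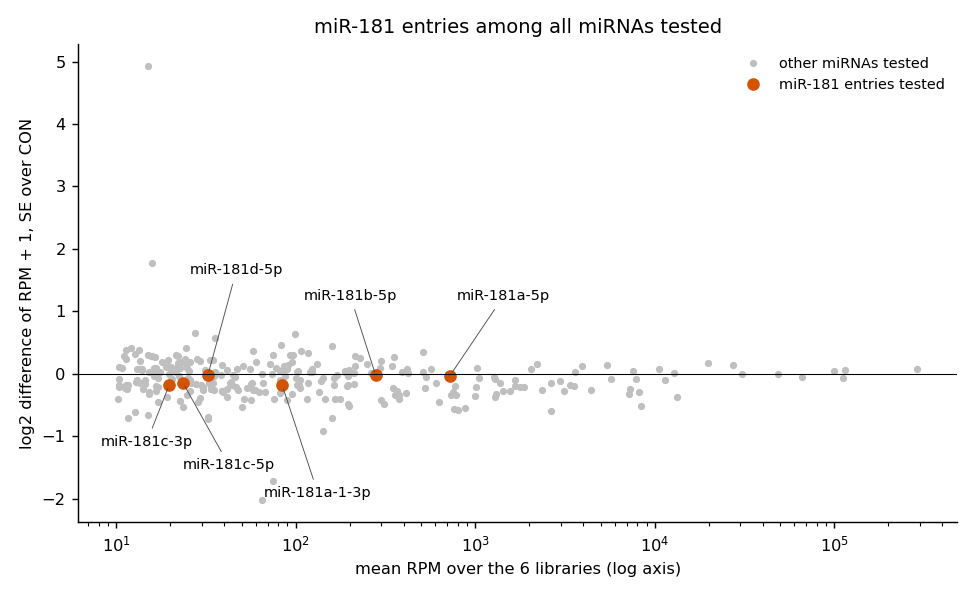
Log2 difference of RPM + 1, SE over CON, against mean RPM on a log axis for the 290 tested miRNAs. The 6 tested miR-181 entries, in orange, lie between -0.18 and -0.02, inside the cloud of the others.

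The sign of these small differences was not stable. All 6 were below 0 on RPM. With median-of-ratios scaling, which shifts the median of all 290 by 0.10, the 3 entries miR-181a-5p, miR-181b-5p and miR-181d-5p were at 0.08 each, and miR-181a-1-3p, miR-181c-3p and miR-181c-5p were at -0.08, -0.07 and -0.04. The intervals of all 6 included 0 under both scalings. Quantile normalization gave 0.41 for miR-181a-5p, with a limma adjusted p of 0.543. By the labels, the log2 fold changes of the authors' deposited table run the other way. Of 22 miRNAs past 0.5, 22 had a sign opposite to that of SE over CON. The headers state no direction, so a comparison of CON over SE and exchanged labels cannot be told apart. The authors' values are above 0 for 5 of the 10 entries and below 0 for 5. The authors' deposited table calls 0 of the 10, where 1.04% of its 772 miRNAs are called, and gives miR-181a-5p -0.07 with a standard error of 0.18, miR-181b-5p -0.08 with 0.15 and miR-181a-2-3p 0.33 with 0.38.

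**Figure D3:**
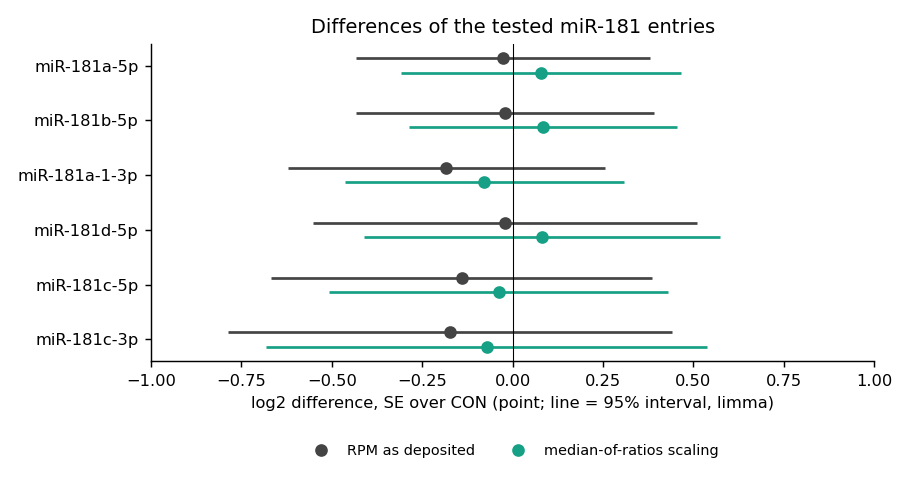
Log2 difference, SE over CON, of the 6 tested entries with 95% intervals from limma. Grey stands for RPM without further scaling, with the CON values put back under their names, which the legend calls RPM as deposited. Green stands for median-of-ratios scaling. Each interval includes 0, and 3 of the 6 points change side between the scalings.

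The order of the levels was the same in all 6 libraries down to the fourth member. miR-181a-5p was above miR-181b-5p, which was above miR-181a-1-3p, which was above miR-181d-5p, with no overlap between the ranges of neighbours. Since the sequences are of nearly equal length, RPM were compared between entries without scaling by length. Unequal ligation or amplification of different sequences was not tested. miR-181d-5p and miR-181c-5p overlapped in range, with miR-181d-5p higher in each of the 6 libraries by 1.06 to 1.94 times. miR-181c-5p and miR-181c-3p did not differ beyond their spread, and nor did miR-181a-2-3p and miR-181d-3p. A gap without overlap separated miR-181c-3p, at 13.4 RPM or more, from miR-181a-2-3p, at 7.38 RPM or less.

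Among the forms with the family seed, miR-181a-5p and miR-181b-5p kept close to constant shares of the 5p sum. The shares of the scarcer forms varied more for their size. Over the 6 libraries miR-181d-5p ran from 2.70% to 3.56% and miR-181c-5p from 1.74% to 2.67%. miR-181a-5p took 68.3% ± 0.456 of the 5p sum in the SE libraries and 68.2% ± 1.55 in the CON libraries (SD, n = 3 each). miR-181b-5p took 26.5% ± 0.913 in SE and 26.4% ± 1.46 in CON libraries. miR-181d-5p took 3.05% ± 0.451 in SE and 3.03% ± 0.312 in CON libraries, and miR-181c-5p 2.12% ± 0.0535 in SE and 2.34% ± 0.521 in CON libraries. The ratio of miR-181a-5p to miR-181b-5p, which does not depend on scaling, lay between 2.504 and 2.70 in SE libraries and between 2.37 and 2.73 in CON libraries. These shares overlapped between the groups for all 4 forms.

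On average the 3p share was lowest for miR-181b and highest for miR-181c in both groups, with miR-181a and miR-181d between them. For miR-181a, the 3p arm made up 10.5% ± 0.552 of the reads of both arms in SE and 11.8% ± 1.96 in CON libraries (SD, n = 3 each, here and for the next 3 forms). For miR-181b its share was 0.415% ± 0.207 in SE and 0.395% ± 0.552 in CON libraries. It was 44.8% ± 0.976 in SE and 45.5% ± 8.90 in CON libraries for miR-181c, and 13.1% ± 1.16 in SE and 9.33% ± 8.19 in CON libraries for miR-181d. miR-181c was the form with arms nearest to equal. It had 0.947 to 1.84 reads of the 5p arm per read of the 3p arm over the 6 libraries. miR-181c-5p lacks 1 base of miR-181a-5p, and miR-181c-3p differs from miR-181a-1-3p by U16G and U19G. How reads were divided between such entries is not stated, so the arm ratio of miR-181c is uncertain. miR-181b stood at the other end, with at most 22 reads of the 3p arm beside 1448 to 3349 reads of the 5p arm in any library. Between the copies of miR-181a, the 3p arm of the chromosome 1 hairpin was above that of chromosome 2 by 12.3 to 21.6 times in SE and 12.0 to 14.0 times in CON libraries.

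CON replicate 1 had the highest 3p share of the 6 libraries for miR-181a and miR-181b and the lowest for miR-181c and miR-181d. Intervals here cover counting error only, which separate libraries can exceed. Its 3p share of miR-181a was 14.0% (95% Wilson interval 12.9% to 15.1%), against 9.90% to 11.4% in the other 5 libraries, whose intervals reached at most 12.2%. The 3p share of miR-181c was lowest there, at 35.2% (29.1% to 41.8%), and highest in CON replicate 3, at 51.4% (46.5% to 56.2%). For miR-181b it was 1.03% (0.622% to 1.68%) in CON replicate 1. In CON replicate 2 it was 0 of 1602 reads, with a Wilson interval up to 0.239%. For miR-181b and miR-181c alike, the interval of CON replicate 1 overlapped those of all SE libraries. For miR-181d, CON replicate 1 held 0 reads of the 3p arm among 146 reads of both arms, with a Wilson interval up to 2.56%, while the other 5 libraries held 12.1% to 15.3%. Such a 0 was rare. Of 361 miRNAs with at least 20 reads in each of the other 5 libraries, 4 were at 0 in CON replicate 1. That was the most of any library, as every other library had 0 to 2 when counted alike. The log2 difference of miR-181c-3p was -0.45 without CON replicate 1, with a limma adjusted p of 0.842, and 0.14 without CON replicate 3, with one of 0.993.

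**Figure D4:**
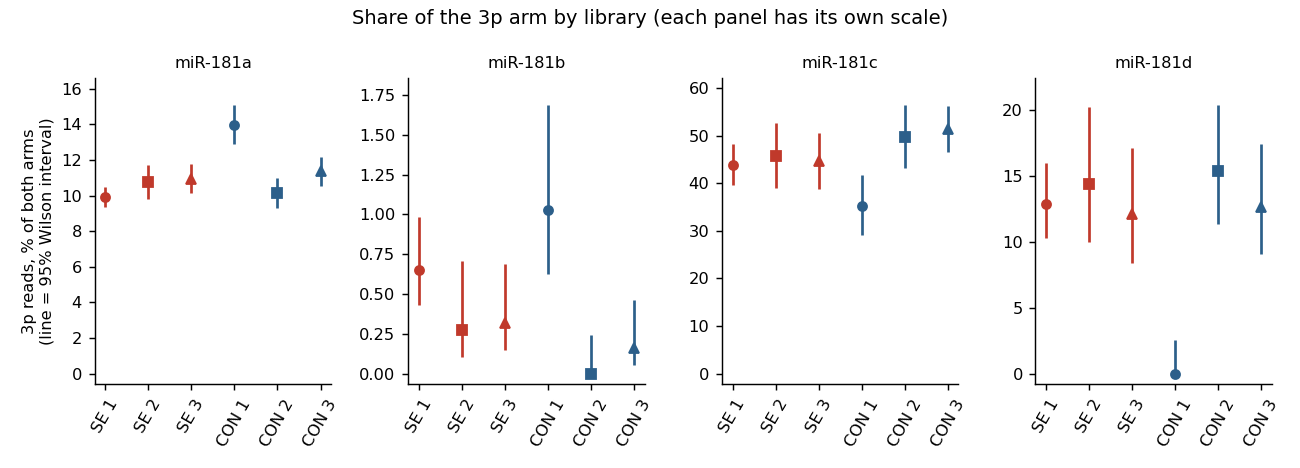
Share of 3p reads among the reads of both arms for each miR-181 form, by library, SE libraries in red to the left and CON libraries in blue, with 95% Wilson intervals for counting error. The miR-181c share lies between 35.2% and 51.4% and the miR-181b share at or under 1.03%, and CON replicate 1 has the highest share for miR-181a and miR-181b and the lowest for miR-181c and miR-181d.

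Across libraries 3 of the 4 forms with the family seed followed each other closely and miR-181c-5p less so. Over the 6 libraries, the Pearson correlation of log2 levels with the sum of the other 5p entries was 0.97 for miR-181a-5p, 0.97 for miR-181b-5p, 0.90 for miR-181d-5p and 0.50 for miR-181c-5p. For the 3p arm, the correlation with the 5p sum was 0.74 for miR-181c-3p and 0.43 for miR-181a-1-3p. These values describe 6 libraries, and part of any such correlation can come from the shared scaling of a library. SE replicate 2 was the lowest SE library for all 6 tested entries, on RPM and after median-of-ratios scaling alike, where it was the lowest for 33.4% of the 290 miRNAs on RPM. SE replicate 1 was the highest SE library for all 6 on RPM, beside 61.0% of the 290, but for 1 of 6 after median-of-ratios scaling. Among CON libraries, CON replicate 1 was the lowest for 4 of the 6 under both scalings, as it was for 87 of the 290 on RPM. CON replicate 3 was the highest for 4 of the 6 on RPM, beside 36.2% of the 290, and for 3 of the 6 after median-of-ratios scaling.

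Outside the family, the miRNAs with the pattern most like the 5p sum were miR-486a-5p/486b-5p (r = 0.99), miR-26a-5p (0.99), miR-30d-5p (0.97), miR-31-5p (0.94) and miR-1839-5p (0.93), as Pearson correlations of log2 values over the 6 libraries. Over all 284 other miRNAs tested the median was 0.06 and the 95th percentile 0.84, so values this high are found by taking the top of a long list. miR-26a-5p and miR-486a-5p/486b-5p were still the 2 nearest after median-of-ratios scaling, at 0.98 and 0.96. miR-26a-5p, an abundant brain miRNA, stood at 15460, 10669 and 12643 RPM in the SE libraries, against 10896, 13290 and 14156 RPM in the CON libraries. miR-486a-5p/486b-5p, a red cell miRNA, stood at 32.2, 16.8 and 25.4 RPM in the SE libraries, against 19.1, 28.5 and 28.6 RPM in the CON libraries. Of the other red cell markers, miR-144-3p and miR-144-5p were at 0 throughout. miR-451a was at 0 in all SE libraries and in CON replicates 1 and 2, and at 0.922 RPM in CON replicate 3. What red cell RNA contributes to the pattern was not tested.

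**Figure D5:**
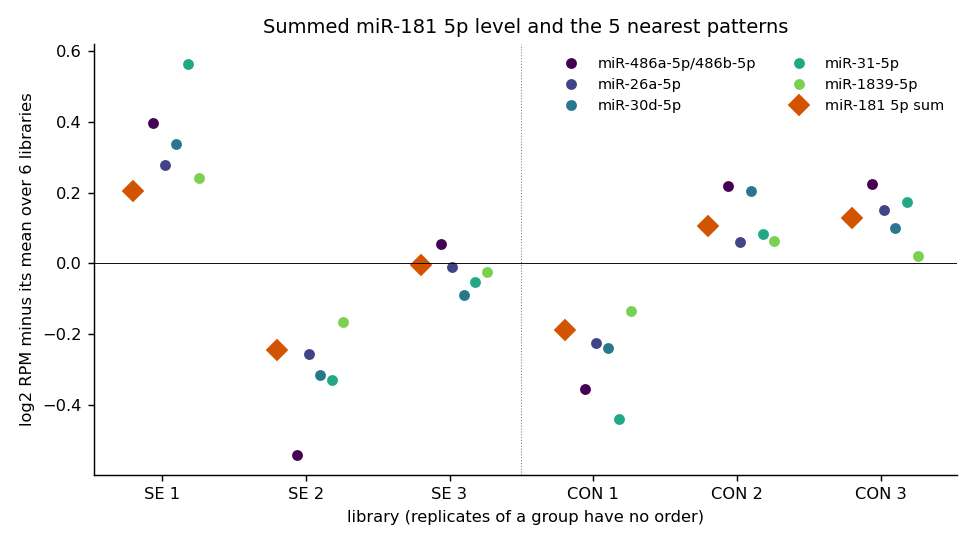
Log2 RPM minus its mean over the 6 libraries for the summed miR-181 5p entries (orange diamonds) and the 5 other miRNAs with the highest correlation to it, by library. SE replicate 2 and CON replicate 1 are low and SE replicate 1 is high in all of them.

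Lists of miRNAs from settings where the family is known give a frame for these values. Of 18 brain-enriched miRNAs, 17 were tested and 0 were called, where 1.03% of the 290 miRNAs were called. This list had a median log2 difference of -0.14, beside -0.07 over all 290. Its most abundant members were miR-7a-5p, with 21118 ± 3226 RPM in the SE libraries against 18637 ± 1259 RPM in the CON libraries, and miR-127-3p, with 7612 ± 293 RPM in the SE libraries against 8042 ± 752 RPM in the CON libraries (SD, n = 3 each). The neuronal miR-124-3p averaged 2344 ± 666 RPM in the SE libraries and 2071 ± 362 RPM in the CON libraries (SD, n = 3 each), above miR-181a-5p in both groups. Of 12 astrocyte and injury miRNAs, all 12 were tested and 0 were called, beside the same 1.03%. For lists this short, 0 called is near that share. The median log2 difference of these 12 was -0.17. The most abundant were miR-26a-5p and miR-29a-3p. miR-29a-3p averaged 6849 ± 417 RPM in the SE libraries against 9877 ± 1921 RPM in the CON libraries (SD, n = 3 each). The log2 difference of miR-29a-3p was -0.51, with a limma adjusted p of 0.191.

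Of 16 lymphocyte and inflammation miRNAs, 12 were tested and 2 were called, beside the 1.03% over all miRNAs. Their median log2 difference was -0.33, beside -0.07 over all 290. This list was chosen with earlier results of these data known, so its share called cannot be read as an enrichment. miR-155-5p, which inflammatory signals induce in macrophages and lymphocytes, averaged 25.3 ± 3.52 RPM in the SE and 105 ± 5.84 RPM in the CON libraries (SD, n = 3 each), a log2 difference of -2.02 with a limma adjusted p of 4.36e-06. miR-21a-5p, which rises in many injured tissues, averaged 33.8 ± 2.11 RPM in the SE and 116 ± 32.5 RPM in the CON libraries (SD, n = 3 each), a log2 difference of -1.72 with a limma adjusted p of 0.000105. The lymphocyte miRNA miR-150-5p, with 34.5 ± 3.78 RPM in the SE libraries against 36.0 ± 9.09 RPM in the CON libraries (SD, n = 3 each), had a log2 difference of -0.04 with a limma adjusted p of 0.966. The 2 lymphocyte markers, miR-150-5p and miR-155-5p, summed to 55.5 to 66.7 RPM in the SE and 134 to 151 RPM in the CON libraries, well under miR-181a-5p alone. Here too, directions follow the labels SE and CON. The source cells of the miR-181 reads cannot be told apart in these libraries.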

How the data were processed

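Per the labels, libraries of vesicle RNA were made with the QIAseq miRNA kit. mm9 and DESeq2 are named in the submitters' processing notes without a role, and the aligner, counter and annotation are not given in the sources used here. The deposited RPM values are reads that the authors scaled to the total of each library. Per the file headers, the authors' deposited second table holds the base mean (a signal, normalized counts averaged over libraries), log2 fold changes and their standard errors, the Wald statistic (a score) and p-values, all copied without a new fit.

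In the RPM table the means of both groups descend down the file, so the CON rows do not follow the names. After the data were examined, they were put back. Reads were recovered from the RPM steps, taking the smallest value of a column as 2 reads. The base mean times 6, less the SE part, gave the normalized CON reads of a miRNA. The SE size factors this needs came from 74 miRNAs without CON reads, picked among those with a log2 fold change under -2 in the authors' deposited table. A fit without fold changes, added after the data were examined, gave the same 3 factors within a relative tolerance of 1e-05. All 687 CON totals above 0 found a CON row at that tolerance, with 88 at 0.

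limma-trend (limma 3.58.1, R 4.3.3) compared SE with CON on log2(RPM + 1) for miRNAs averaging 10 RPM or more. The test was two-sided, calls needed an adjusted p (Benjamini-Hochberg, all tested miRNAs) under 0.05, and no p was taken over the family. The fit was tested on simulated data. Named miRNAs were all members, the 5 nearest patterns, and from each list the members called, or otherwise the 2 most abundant. miR-124-3p and miR-150-5p were added after their values were seen. The members and lists were chosen with earlier results of these data known. Alternatives covered pseudocounts, filters, scaling, limma options, the replicate number as a block, limma-voom, an adjusted p under 0.1, the names as deposited, and each library left out. An edgeR test on recovered reads was not run. Figures used Python 3.11.15 with matplotlib 3.10.9.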

Additional observations from a re-analysis of the deposited data

How the results depend on the processing

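The count of called miR-181 entries was 0 under all 18 alternatives run, among them an adjusted p under 0.1, the fit with the replicate number as a block (0 called) and each library left out (0 to 0). The planned edgeR test was not run. Deviations of same-numbered SE and CON libraries from their group means correlated at -0.42, -0.25 and 0.04 for numbers 1, 2 and 3. Deviations within a group of 3 sum to 0, so these values cannot settle whether the numbers pair the libraries. The block changed no call. Of 99 alternative values of the 6 log2 differences, 81 kept their sign and 18 reversed it, and none was called. The filters, the limma options and the replicate block cannot move a log2 difference, so those values kept their sign by construction. With median-of-ratios scaling miR-181a-5p, miR-181b-5p and miR-181d-5p were at 0.0794, 0.084 and 0.0814, and with quantile normalization at 0.41, 0.00169 and 0.0447. With the CON names as deposited miR-181c-5p was at 0.0786, and the CON sum of the 5p entries was 1299.8 RPM rather than 1067. That moves by construction, since another row stands under each name. With 1 library left out, the log2 difference ran from -0.15 to 0.0917 for miR-181a-5p, -0.10 to 0.0758 for miR-181b-5p, -0.24 to 0.12 for miR-181d-5p, -0.29 to 0.00116 for miR-181c-5p, -0.45 to 0.14 for miR-181c-3p and -0.25 to -0.08 for miR-181a-1-3p. Leaving out SE replicate 2 or CON replicate 2 reversed miR-181a-5p, miR-181b-5p and miR-181d-5p, leaving out CON replicate 3 reversed miR-181a-5p, miR-181b-5p and both miR-181c entries, and leaving out SE replicate 3 reversed miR-181d-5p. The cause of the other reversals was not tested. The 5p sum ran from 968 to 1130 RPM in SE and from 1027 to 1140 RPM in CON libraries with 1 library left out. Depth limits the 4 entries under 10 RPM, which rest on 13 to 251 reads over all libraries.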
